A study of Mus musculus with 18 samples.

Results

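The livers of diabetic MKR mice were compared with those of wild-type (WT) mice on 6 of the 18 arrays of the series, chosen because their titles name the liver. The MKR group consisted of 3 livers of male FVB/N mice aged 10 weeks that carry a mutated IGF1 receptor in skeletal muscle, and the WT group of 3 livers of male FVB/N mice of the same age without it. All mice had free access to Picolab rodent diet 5053 and water under a 12-h light and dark cycle, were killed with CO2, and their livers were flash frozen. Amplified cDNA of each liver was measured on 1 Affymetrix Mouse Gene 1.0 ST array, and the labels name the livers as biological replicates 1 to 3 of each genotype.

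The transgene of MKR mice is a human IGF1 receptor that cannot signal, driven by the muscle creatine kinase promoter, and it pairs with the receptors of muscle and blocks them. Muscle then takes up little glucose, insulin rises in the blood, and the liver, which does not carry the transgene's activity, is exposed to high insulin, glucose and fatty acids. The liver makes glucose in the fasted state, stores it as glycogen in the fed state and turns the excess into fatty acids. Insulin switches on the genes of fatty acid synthesis through the factor SREBP1c, and glucose switches them on through ChREBP. The comparison therefore asks what changes in a tissue whose own receptor genes were not altered. Whether the mice had fed before they were killed, and at what hour, is not given in the sources used here.

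The deposited log2 values run over a narrow range, from 1.52 to 3.82, as values transformed to log2 a second time would. No source states this, so it is an inference, and each value was turned back to a log2 intensity by raising 2 to it, which gave 2.87 to 14.15. A gene's level is the mean log2 intensity of its probe sets, and a change is the MKR mean minus the WT mean over 3 livers each, so that 1 on this scale is a doubling of intensity. In all, 20358 genes were measured with a median of 8 probe sets each.

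The arrays were those of liver. The 12 measured hepatocyte markers, among them Alb for albumin and Ttr for the thyroxine carrier transthyretin, averaged 11.98 to 12.03 in MKR livers and 11.99 to 12.09 in WT livers, and 5.25 to 6.52 in the arrays of muscle. The 10 skeletal muscle markers averaged 5.03 to 5.29 in MKR livers and 5.03 to 5.31 in WT livers. Over all genes, pairs of an MKR and a WT liver correlated at 0.977 to 0.987, and pairs of livers of 1 genotype at 0.982 to 0.988.

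Some arrays stood apart. WT liver 2 had a strong acute-phase pattern, with Saa3 4.90, Lcn2 4.87 and Saa2 4.14 above the highest of the other 5 livers on the log2 scale, and Orm2 3.01 above it. These genes encode serum amyloid A proteins, lipocalin 2 and orosomucoid 2, which hepatocytes secrete in inflammation. In MKR liver 3, 18 genes lay more than 1 above all other livers, among them Acot3, Cyp2b9 and Cyp4a14, against 1 to 8 such genes in each of the other livers.

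Differences between the genotypes were small for most genes. Over all genes the median absolute change was 0.09, and 99% of genes had a change of less than 0.58. A single gene, Ntrk2, passed limma's test at a Benjamini-Hochberg adjusted p under 0.05, which is 0.00491% of the genes tested, and the next smallest adjusted p was 0.175. An unadjusted p under 0.05 was reached by 980 genes or 4.81%, where 5% would be expected without any difference, with 494 (2.43%) higher and 486 (2.39%) lower in MKR livers. The thresholds of the study's methods, which require a fold change over 1.5 besides p under 0.05, were met by 111 genes (0.545%) that were higher and 51 (0.251%) that were lower. The 3 MKR livers lay above the 3 WT livers in 837 genes (4.11%) and below them in 1082 (5.31%), without overlap. With 3 livers each, an exact permutation test of 1 gene cannot give a p below 0.1, so single genes rest on limma. Below, a gene counted at p under 0.05 has an unadjusted p under it, adjusted p-values are limma's over all genes, and no gene but Ntrk2 passed after adjustment in the 6 livers.

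**Figure D1:**
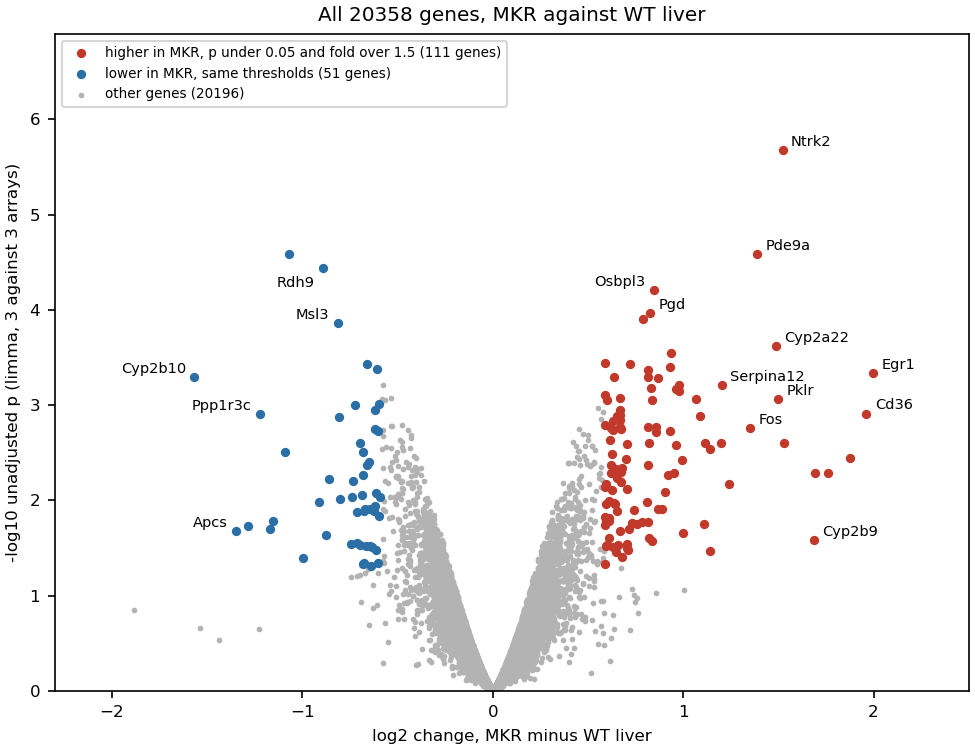
Each point is 1 of 20358 genes, with the change in liver (MKR mean minus WT mean, log2 scale) on the x axis and the unadjusted p of limma, on a log axis as minus log10, on the y axis. Ntrk2 is the gene at an adjusted p under 0.05, and the cloud of other genes is densest at changes close to 0.

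Igf1r, the mouse gene of the receptor that the transgene targets in muscle, had levels of 4.93, 5.02 and 4.98 in MKR livers, against 4.84, 4.97 and 4.97 in WT livers. The groups overlapped, with a change of 0.05 ± 0.11 (SE), and 12 of its 23 probe sets had a higher mean in MKR livers. In the muscle arrays of the same mice the change was 2.02, with an adjusted p of 0.169 in the fit over all 18 arrays. The spread in that fit includes MKR fat 1, an array with epididymis transcripts. The Igf1r change in fat was 0.46 with that array and -0.52 without it. The SE of the liver change was 0.52 in the fit over 18 arrays, against 0.11 in the livers alone. The p of 0.169 therefore cannot decide whether Igf1r differed in muscle. Whether these probes read the human transgene was not tested.

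Ntrk2, which encodes TrkB, the receptor of brain-derived neurotrophic factor, rose in MKR livers. Its levels were 7.10, 6.82 and 6.59 in MKR livers, against 5.53, 5.21 and 5.20 in WT livers. The lowest MKR liver was more than 1 above the highest WT liver, and the change was 1.52 ± 0.15 (SE, adjusted p = 0.0425). Of its 27 probe sets, 23 had a higher mean in MKR livers, and 18 separated the groups without overlap. Leaving out 1 liver at a time moved the change between 1.39 and 1.65, but the adjusted p stayed under the threshold only without MKR liver 1 or MKR liver 3.

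Pde9a, a phosphodiesterase that breaks down cyclic GMP, was next in order of p. Its levels were 6.85, 6.98 and 6.34 in MKR livers and 5.17, 5.20 and 5.64 in WT livers, a change of 1.39 ± 0.19 (SE, adjusted p = 0.175). All 20 of its probe sets had a higher mean in MKR livers. Osbpl3, a lipid-transfer protein related to the oxysterol-binding protein, stood at 6.99, 6.61 and 6.84 in MKR livers and 5.89, 6.06 and 5.95 in WT livers, a change of 0.85 ± 0.13 (SE, adjusted p = 0.251) that 24 of 25 probe sets shared in sign. Both genes separated the groups without overlap.

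Rdh9, a retinol dehydrogenase of the short-chain family, had 8.97, 8.95 and 9.28 in MKR livers, against 9.88, 10.01 and 9.99 in WT livers. The change of -0.89 ± 0.13 (SE, adjusted p = 0.184) rests on 2 probe sets, and related retinol dehydrogenases may share signal with them. Msl3, a subunit of the MSL histone acetyltransferase complex, had 7.95, 7.88 and 8.08 in MKR livers and 8.64, 8.67 and 9.04 in WT livers, and all 13 probe sets were lower on average in MKR livers. Cyp2a22, a cytochrome P450 of the Cyp2a cluster, had 7.44, 6.67 and 7.85 in MKR livers, against 5.72, 6.16 and 5.62 in WT livers, a change of 1.49 on 3 probe sets (adjusted p = 0.503). None of these groups of livers overlapped.

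When the spread was estimated over all 18 arrays, 7 genes (0.0344%) had an adjusted p under 0.05 in liver: Ntrk2, Pde9a, Osbpl3, Pgd, Rdh9, Msl3 and Cyp2a22. Msl3 differed by -1.07 in muscle (adjusted p = 0.000165) and by -0.79 in fat as well, against -0.81 in liver. The other 6 had changes between -0.31 and 0.17 in muscle and between -0.29 and 0.15 in fat. These fat values include MKR fat 1, an array with epididymis transcripts, and without it the 6 lay between -0.28 and 0.35 in fat. In limma over all genes, the difference of the changes in liver and muscle passed for 15 genes (0.0737%), and that in liver and fat for 0, with 1222 genes at an unadjusted p under 0.05 (1890 and again 0 without MKR fat 1). None of the 7 passed any of these tests, with adjusted p-values against muscle of 0.0551 for Pde9a and 0.107 for Ntrk2.

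**Figure D2:**
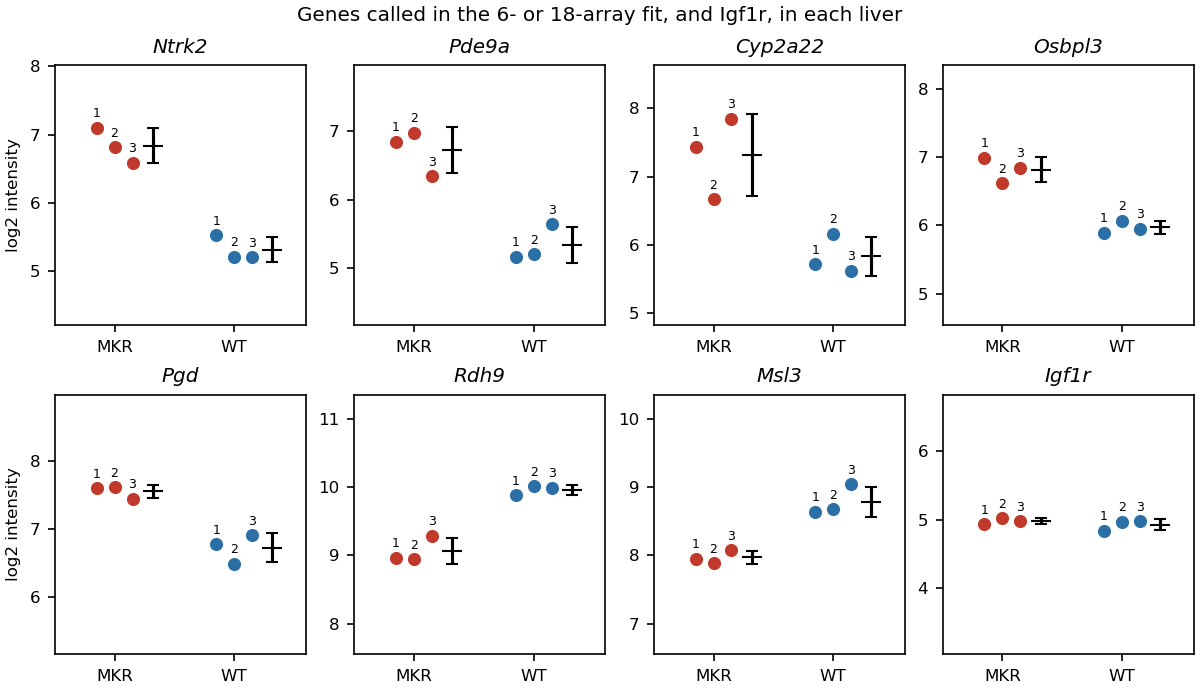
Log2 intensity (y axis) of the 7 genes with an adjusted p under 0.05 in the fit over all arrays and of Igf1r in each liver, MKR left of WT, with numbers for the replicates and bars for the mean ± SD of 3 livers. The MKR and WT livers do not overlap in the 7 genes and overlap in Igf1r.

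Most measured genes of fatty acid synthesis had a higher mean in MKR livers, and none passed after adjustment. Of 20 measured members, 18 had a higher mean in MKR livers, against 48.6% of all genes, and 9 (45%) had a higher level at p under 0.05, against 2.43% of all genes. The median change was 0.39, against -0.00478 over all genes, and stayed between 0.29 and 0.46 when any liver was left out. Fatty acid synthesis in these livers is a subject of the study itself, so the direction of the list is not independent evidence.

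Pklr, the liver pyruvate kinase and a target of ChREBP, had the largest change of the list. Its levels were 9.50, 9.57 and 8.80 in MKR livers, against 8.57, 7.22 and 7.59 in WT livers, and the change was 1.5 ± 0.32 (SE, adjusted p = 0.505). The groups did not overlap, but WT liver 1 lay close below MKR liver 3. All 11 probe sets had a higher mean in MKR livers.

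Enzymes that build and modify the fatty acid chain were among the members at p under 0.05. Acaca, acetyl-CoA carboxylase, which makes malonyl-CoA, had 8.22, 8.59 and 7.88 in MKR livers and 7.75, 6.97 and 7.17 in WT livers, a change of 0.93 ± 0.22 (SE, adjusted p = 0.565). Fasn, the fatty acid synthase, had 8.68, 8.82 and 7.26 in MKR livers, against 7.78, 6.77 and 6.88 in WT livers. MKR liver 3 lay in the WT range here, and the change of 1.11 ± 0.39 (SE, adjusted p = 0.955) kept a p under 0.05 in only 2 of the 6 fits that left out a liver. Elovl6, which lengthens palmitate to stearate, had 9.32, 10.06 and 8.72 in MKR livers and 8.85, 7.52 and 8.01 in WT livers, with a change of 1.24 ± 0.36 (SE, adjusted p = 0.753). Scd1, the desaturase that makes oleate, had 11.70, 11.81 and 11.94 in MKR livers, against 11.57, 11.13 and 9.75 in WT livers. Its change of 1.0 became 0.47 without WT liver 3, which was well below the other livers.

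Srebf1, the gene of SREBP1c, had 7.66, 7.10 and 6.51 in MKR livers and 6.71, 6.44 and 6.39 in WT livers, a change of 0.58 with overlap, which was 0.29 without MKR liver 1. Mlxipl, the gene of ChREBP, had 9.19, 9.43 and 9.37 in MKR livers and 9.21, 9.18 and 9.04 in WT livers, a change of 0.18. Acly, which makes the acetyl-CoA for the pathway, had a change of 0.50 (0.24 without MKR liver 2), and Thrsp, Scd2 and Elovl5 had changes of 0.15, 0.12 and 0.20. The desaturases of polyunsaturated fatty acids, Fads1 and Fads2, were the 2 members with a lower mean in MKR livers, at -0.05 and -0.22. Over the list, MKR liver 2 had the highest level in 11 of the 20 genes and WT liver 2 the lowest in 8. Without MKR liver 3 the count at p under 0.05 was 12, and without MKR liver 2 or WT liver 3 it was 5.

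NADPH, which reduces the growing chain, is supplied by malic enzyme and the pentose phosphate pathway. Me1, the malic enzyme, had 10.19, 10.02 and 10.05 in MKR livers, against 9.72, 9.19 and 9.50 in WT livers, a change of 0.62 ± 0.15 (SE, adjusted p = 0.561). Pgd, which makes NADPH from 6-phosphogluconate, had 7.60, 7.62 and 7.44 in MKR livers, against 6.78, 6.49 and 6.91 in WT livers, a change of 0.83 ± 0.13 (SE, adjusted p = 0.352). Tkt, transketolase, had 7.19, 6.89 and 6.96 in MKR livers and 6.53, 6.36 and 6.49 in WT livers, a change of 0.56 ± 0.12 (SE, adjusted p = 0.554). None of the 3 overlapped between genotypes. They were the 3 of 12 members at p under 0.05 (25%, against 2.43% of all genes higher), and the median of the list was 0.04.

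**Figure D3:**
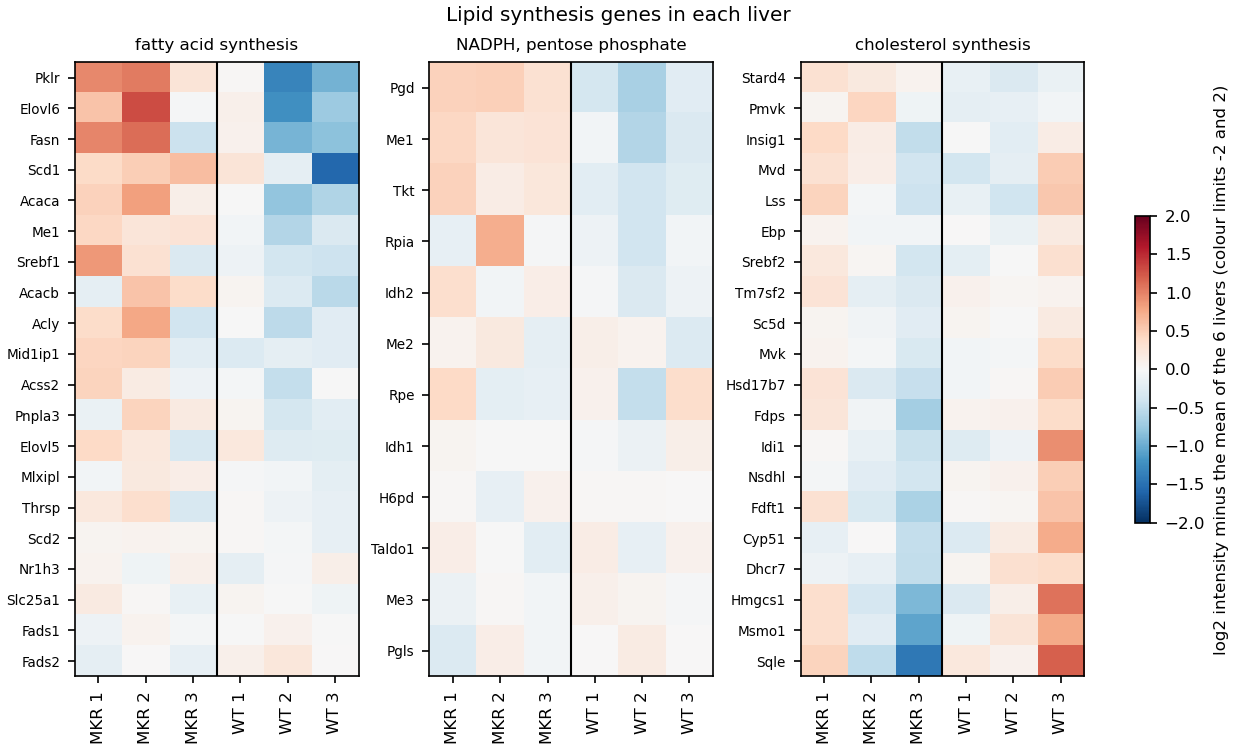
Heat maps of the 6 livers (columns, MKR left of WT) for fatty acid synthesis, NADPH supply and cholesterol synthesis, each gene (row) as log2 intensity minus its mean over the livers. Fatty acid synthesis genes are mostly above their mean in MKR livers 1 and 2, and cholesterol synthesis genes are lowest in MKR liver 3 and highest in WT liver 3.

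Sugar metabolism upstream of fatty acid synthesis had fewer members past p under 0.05. In glycolysis 11 of 13 genes had a higher mean in MKR livers. At p under 0.05, 3 were higher (Pklr, Khk and Gckr), which is 23.1% against 2.43% of all genes. Without MKR liver 3 the count was 6. Khk, ketohexokinase, which takes fructose into the pathway, had 9.43, 9.44 and 8.77 in MKR livers, against 8.62, 8.21 and 8.37 in WT livers, a change of 0.81 ± 0.19 (SE, adjusted p = 0.561). Gckr, the protein that holds glucokinase in the nucleus, had a change of 0.57 (adjusted p = 0.669). Of 12 gluconeogenesis genes 6 had a higher and 6 a lower mean. Fbp1, fructose-1,6-bisphosphatase, had a change of 0.33 (adjusted p = 0.976) and G6pc, which releases free glucose, one of 0.71, for which WT liver 2 was the lowest at 9.44 and without which it was 0.33. Pck1, the PEPCK gene that insulin represses, had 11.09, 10.89 and 11.30 in MKR livers and 11.37, 11.15 and 11.40 in WT livers, with overlap.

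Glycogen genes went both ways. Ppp1r3c, a subunit that directs protein phosphatase 1 to glycogen, had 7.25, 6.63 and 6.32 in MKR livers, against 7.69, 7.64 and 8.54 in WT livers, a change of -1.22 ± 0.27 (SE, adjusted p = 0.561) without overlap. Gbe1, the branching enzyme, had 11.07, 10.87 and 10.95 in MKR livers and 10.66, 10.05 and 10.49 in WT livers, a change of 0.56 (adjusted p = 0.708). Pygl, the liver phosphorylase that degrades glycogen, had a change of 0.44 with overlap, or 0.25 without WT liver 2.

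Cholesterol synthesis genes mostly had lower means in MKR livers. Of 20 measured members 15 had a lower mean in MKR livers, the median was -0.25, and 3 were lower (15%, against 2.39% of all genes) and 1 higher at p under 0.05. Dhcr7, which reduces 7-dehydrocholesterol to cholesterol, had 7.66, 7.60 and 7.26 in MKR livers and 7.82, 8.08 and 8.12 in WT livers, a change of -0.50 ± 0.14 (SE, adjusted p = 0.723) without overlap. Nsdhl, a sterol dehydrogenase of the pathway, had a change of -0.42 (adjusted p = 0.955), also without overlap.

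A pair of livers set much of this pattern. MKR liver 3 was the lowest liver in 17 of the 20 genes, and WT liver 3 the highest in 16. Sqle, squalene epoxidase, had 8.69, 7.73 and 6.82 in MKR livers, against 8.46, 8.33 and 9.44 in WT livers, and its change of -1.0 became -0.53 without MKR liver 3 and -0.65 without WT liver 3. The median of the list was -0.09 without MKR liver 3 and -0.12 without WT liver 3, with 1 lower member at p under 0.05 in each case, and -0.37 with 9 lower members without MKR liver 1. Stard4, which carries cholesterol between membranes, had the opposite sign, with 9.24, 9.12 and 9.0 in MKR livers and 8.78, 8.64 and 8.80 in WT livers, a change of 0.38 (adjusted p = 0.822).

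Promoter sequence is shown for the members that led these pathways, since the CCAAT box, bound by NF-Y, is a common element of lipid synthesis genes. The windows are the 250 bases before the start of the RefSeq transcript on GRCm38.p6, 5′ to 3′ on the strand of the gene, with CCAAT or its reverse complement in capitals.
Pklr (chr3:89136373-89136622, plus strand): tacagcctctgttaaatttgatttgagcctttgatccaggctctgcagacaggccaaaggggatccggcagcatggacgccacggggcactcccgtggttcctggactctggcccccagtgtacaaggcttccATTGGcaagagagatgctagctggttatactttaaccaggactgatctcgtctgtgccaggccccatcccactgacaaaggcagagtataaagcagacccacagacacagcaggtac
Dhcr7 (chr7:143829964-143830213, plus strand): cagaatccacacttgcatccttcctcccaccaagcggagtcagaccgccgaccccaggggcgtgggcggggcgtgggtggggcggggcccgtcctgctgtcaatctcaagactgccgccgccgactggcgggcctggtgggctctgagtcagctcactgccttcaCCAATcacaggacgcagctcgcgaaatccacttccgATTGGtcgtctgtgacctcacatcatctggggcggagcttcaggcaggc
CCAAT was found on either strand in 37.5% of 27025 genes with such a window, in 11 of the 17 fatty acid synthesis genes that had one, and in 16 of 16 cholesterol synthesis genes. Fasn, Me1 and Pklr were among the 11, and Acaca, Elovl6 and Scd1 were not, for lack of a match or of a window. The Pklr window holds 1 match and the Dhcr7 window 2. The matches describe the letters of the windows, and binding was not measured.

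Genes that take up and store fatty acids had some of the largest changes. Cd36, the fatty acid translocase of the cell surface, had 9.36, 7.31 and 9.19 in MKR livers, against 6.86, 6.57 and 6.54 in WT livers, a change of 1.96 ± 0.44 (SE, adjusted p = 0.561) without overlap. MKR liver 2 was nearest to the WT livers, and without it the change was 2.62 with an adjusted p of 0.000456. Cd36 passed in 1 of 16 settings, which was this one, and its change fell as low as 1.59 with another liver left out. All 19 probe sets had a higher mean in MKR livers. Mogat1, a monoacylglycerol acyltransferase of triglyceride synthesis, had 7.13, 5.67 and 6.11 in MKR livers and 5.11, 5.22 and 4.99 in WT livers, a change of 1.20 ± 0.30 (SE, adjusted p = 0.61) that became 0.78 without MKR liver 1. Plin2, which coats lipid droplets, had 9.73, 9.14 and 9.50 in MKR livers and 8.95, 8.98 and 9.20 in WT livers, a change of 0.41 (adjusted p = 0.98), or 0.27 without MKR liver 1. Pparg, the nuclear receptor that drives fat storage, had a change of 0.45 (adjusted p = 0.984) with overlap.

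Lpin1, a phosphatidate phosphatase and coactivator that fasting induces, had 8.91, 10.12 and 9.50 in MKR livers, against 10.41, 9.91 and 10.20 in WT livers, a change of -0.66 (adjusted p = 0.98) that became -0.36 without MKR liver 1. In the list of triglyceride and droplet genes 3 of 20 were higher (15%) and 1 lower (5%) at p under 0.05. The shares of all genes were 2.43% and 2.39%. In this list 1 was higher without MKR liver 1 or WT liver 2 and 5 without WT liver 1. Cidec, a droplet protein of fatty liver, had a change of 0.03. Of 18 lipoprotein genes 1 was higher (Abca1, 0.39, or 0.22 without WT liver 2) and 1 lower (Apoc2, -0.50, or -0.33 without MKR liver 3). Each was 5.56% of that list.

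Targets of PPARα, the receptor that fasting and fatty acids activate, had a higher mean in MKR livers in 16 of 19 cases, with a median of 0.10. At p under 0.05, 4 were higher (Cd36, Acot3, Pdk4 and Plin2) and 1 lower (Angptl4). These were 21.1% and 5.26% of the list, against 2.43% and 2.39% of all genes. MKR liver 3 was the highest liver in 11 of the 19 genes, and without it 10 had a higher mean, the median was 0.01, and 2 were higher and 2 lower at p under 0.05. Pdk4, which turns off pyruvate oxidation, had 6.15, 6.19 and 6.48 in MKR livers and 5.91, 5.83 and 5.83 in WT livers, a change of 0.42 ± 0.12 (SE, adjusted p = 0.75). Angptl4, a secreted inhibitor of lipoprotein lipase, had 7.80, 7.42 and 7.90 in MKR livers, against 8.40, 8.05 and 8.40 in WT livers, a change of -0.57 ± 0.16 (SE, adjusted p = 0.669). Cpt1a, which admits fatty acids to the mitochondrion, had 9.93, 9.56 and 9.48 in MKR livers and 9.67, 9.48 and 9.55 in WT livers, and Fgf21 had a change of 0.10.

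Cyp4a14, an omega-hydroxylase of fatty acids, varied more among livers of 1 genotype than between genotypes, with 6.78, 5.27 and 10.14 in MKR livers and 6.48, 5.56 and 8.60 in WT livers. The replicate-3 liver was the highest of both groups. Acot3, a peroxisomal acyl-CoA thioesterase, had 5.94, 5.94 and 7.92 in MKR livers and 5.51, 5.88 and 4.99 in WT livers, and its change of 1.14 became 0.48 without MKR liver 3. In fatty acid oxidation 18 of 22 genes had a higher mean in MKR livers, but only Acaa1b, a peroxisomal thiolase, had a p under 0.05. Its levels were 8.58, 8.20 and 8.11 in MKR livers and 7.63, 7.57 and 7.24 in WT livers, a change of 0.81 ± 0.16 (SE, adjusted p = 0.503), and the near-identical gene Acaa1a had a change of 0.26.

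Bile acid synthesis held 3 genes that were lower and 1 that was higher at p under 0.05 among 23. These were 13% and 4.35% of the list, against 2.39% and 2.43% of all genes. Without MKR liver 3, WT liver 1 or WT liver 3, 1 was lower. Without WT liver 3 the median of -0.09 became 0.07. Cyp7a1, the rate-limiting enzyme, had 10.44, 10.55 and 10.15 in MKR livers and 10.62, 10.88 and 10.58 in WT livers, a change of -0.32 that became -0.20 without MKR liver 3. Cyp7b1, an oxysterol hydroxylase that is higher in male than in female mouse liver, had a change of -0.64 (adjusted p = 0.984), or -0.35 without MKR liver 3, and Cyp39a1, another oxysterol hydroxylase, one of -1.15 (adjusted p = 0.95). Klb, the co-receptor of FGF15 and FGF21 that acts to restrain the pathway, had a change of 0.45, or 0.26 without WT liver 2. Of these 4 only Cyp7a1 did not overlap between genotypes.

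Retinol metabolism had 5 genes higher (23.8%, against 2.43% of all genes) and 1 lower (4.76%, against 2.39%) at p under 0.05 among 21. WT liver 2 was the lowest liver in 11 of the 21, and without it 1 was higher and 1 lower, while 2 were higher without WT liver 3. Rdh16, a retinol dehydrogenase, had 8.94, 8.93 and 9.25 in MKR livers and 8.50, 8.05 and 8.55 in WT livers, a change of 0.67 ± 0.16 (SE, adjusted p = 0.561), the opposite of its relative Rdh9. Lrat, which esterifies retinol for storage in stellate cells, had 6.81, 6.78 and 6.81 in MKR livers and 6.75, 5.86 and 5.95 in WT livers, and rests on 2 probe sets. Dhrs3, Aldh1a7 and Rdh5 had changes between 0.28 and 0.34, of which that of Rdh5 was 0.22 without MKR liver 2. The groups did not overlap in any of these 6 genes. In the list, 6 genes were higher and 1 lower without overlap, against 4.11% and 5.31% of all genes.

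Among drug-metabolising cytochrome P450 genes the Cyp2b pair had opposite signs. Cyp2b10, the gene that the receptor CAR induces, had 6.9, 7.13 and 7.78 in MKR livers, against 9.13, 8.09 and 9.28 in WT livers, a change of -1.57 ± 0.31 (SE, adjusted p = 0.503) without overlap. Cyp2b9, which is higher in female than in male mouse liver, had 8.97, 7.46 and 10.56 in MKR livers and 8.03, 7.37 and 6.53 in WT livers, a change of 1.69 with overlap that became 0.90 without MKR liver 3. The 2 genes are close in sequence, so their probes may share signal. Nr1i2, the gene of the drug-sensing receptor PXR, had a change of -0.25. In all, 2 of the 32 genes on this list were higher and 2 lower at p under 0.05. This is 6.25% each way, against 2.43% and 2.39% of all genes. When a liver was left out, 1 to 5 were higher and 1 to 3 lower.

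Ugt2b37, a glucuronosyltransferase, had 7.49, 8.42 and 9.97 in MKR livers and 6.36, 6.74 and 7.14 in WT livers, a change of 1.88 ± 0.49 (SE, adjusted p = 0.664) without overlap that became 1.21 without MKR liver 3. Ugt2b genes are close copies whose probes may share signal, and Ugt2b38 had a change of 0.58. Of 32 phase 2 genes 24 had a higher mean in MKR livers with a median of 0.11. At p under 0.05, 3 were higher (9.38%, against 2.43% of all genes) and 0 lower. WT liver 2 was the lowest liver in 19 of the 32, and without it 16 had a higher mean, the median was 0.0056 and 0 were higher or lower at p under 0.05. Without MKR liver 1 or MKR liver 3, 1 was higher. The antioxidant factor NRF2, encoded by Nfe2l2, had a change of 0.36 (adjusted p = 0.98), and its target Nqo1 one of 0.33 (adjusted p = 0.98), both without overlap. Gclc, which makes the precursor of glutathione, had a change of 0.53 (adjusted p = 0.95) with overlap.

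Growth hormone sets the sex differences of mouse liver through its pulses. Of 22 female-biased genes 4 were higher (Ntrk2, Cd36, Cyp2b9 and Acot3) and 1 (Cyp2b10) lower at p under 0.05. Of 23 male-biased genes 2 were higher (Bcl6 and Cyp4a12b) and 1 (Cyp7b1) lower. These were 18.2% and 4.55% of the female-biased and 8.7% and 4.35% of the male-biased genes. Over all genes 2.43% were higher and 2.39% lower. MKR liver 3 was the highest liver in 13 of the 22 female-biased genes and the lowest in 12 of the 23 male-biased genes. Without it, 2 female-biased genes were higher and 2 lower, and 5 male-biased genes were higher and 0 lower. Without WT liver 2, the change of Bcl6 was 0.37 against 0.67 with all livers and 0 male-biased genes were higher and 3 lower. The change of Cyp4a12b was 0.28 without MKR liver 2, against 0.43 with all livers. Igf1, the product of growth hormone action, had 12.08, 12.11 and 12.20 in MKR livers and 12.05, 12.05 and 11.90 in WT livers, a change of 0.13. The receptor Ghr had a change of 0.20. Neither overlapped between genotypes. They were the 2 of 20 genes of the growth hormone and IGF list higher without overlap, against 4.11% of all genes. In that list 0 of 20 genes had a p under 0.05.

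Immediate early genes, which cells switch on within minutes of a stimulus, mostly had higher means in MKR livers, with livers 2 and 3 above liver 1. Of 31 measured genes 27 had a higher mean in MKR livers, 12 (38.7%, against 2.43% of all genes) were higher at p under 0.05 and 0 lower, and the median change was 0.24. MKR livers 2 and 3 were the highest in 13 and 11 of the 31 genes, whereas MKR liver 1 averaged 5.75 over the list, as WT liver 1 did at 5.76.

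Egr1, a zinc-finger factor of this class, had 6.27, 7.99 and 8.02 in MKR livers, against 5.62, 5.26 and 5.40 in WT livers, a change of 2.00 ± 0.39 (SE, adjusted p = 0.503). Fos, a partner in the AP-1 factor, had 5.46, 6.92 and 6.80 in MKR livers and 5.11, 4.92 and 5.08 in WT livers, a change of 1.35 ± 0.32 (SE, adjusted p = 0.561). Atf3, a repressor that stress induces, had 5.85, 6.87 and 6.9 in MKR livers and 5.46, 5.48 and 5.42 in WT livers, a change of 1.09 ± 0.24 (SE, adjusted p = 0.561). In all 3 genes every MKR liver was above every WT liver, with MKR liver 1 between the other MKR livers and the WT livers. Without MKR liver 1 the changes were 2.58, 1.82 and 1.43, with adjusted p-values of 0.000347, 0.00161 and 0.00468. Each gene passed in 1 of 16 settings, which was this one. With another liver left out the changes fell as low as 1.70, 1.09 and 0.91.

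Gadd45a, a stress sensor that slows the cell cycle, was more even, with 6.53, 6.86 and 6.87 in MKR livers and 6.06, 5.87 and 5.97 in WT livers, a change of 0.79 ± 0.13 (SE, adjusted p = 0.352). Myc had 7.07, 8.70 and 8.75 in MKR livers and 6.64, 7.20 and 5.59 in WT livers, and Gadd45g had 6.88, 8.57 and 8.08 in MKR livers and 6.96, 6.24 and 5.04 in WT livers, both with overlap. Tiparp, a poly(ADP-ribose) polymerase that the dioxin receptor induces, followed the same order of livers, with 7.59, 8.50 and 8.43 in MKR livers and 7.30, 6.89 and 7.14 in WT livers. Depending on the liver left out, the list had 8 to 15 members higher at p under 0.05.

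Fos and Atf3 are well-known targets of the factor CREB, and their upstream windows are shown for its core TGACG, on either strand, in capitals.
Fos (chr12:85473640-85473889, plus strand): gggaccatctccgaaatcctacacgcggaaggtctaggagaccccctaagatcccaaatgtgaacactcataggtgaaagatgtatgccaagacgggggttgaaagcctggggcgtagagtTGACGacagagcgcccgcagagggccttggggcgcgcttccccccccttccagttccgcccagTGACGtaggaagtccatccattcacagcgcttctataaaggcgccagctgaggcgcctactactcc
Atf3 (chr1:191183334-191183583, minus strand): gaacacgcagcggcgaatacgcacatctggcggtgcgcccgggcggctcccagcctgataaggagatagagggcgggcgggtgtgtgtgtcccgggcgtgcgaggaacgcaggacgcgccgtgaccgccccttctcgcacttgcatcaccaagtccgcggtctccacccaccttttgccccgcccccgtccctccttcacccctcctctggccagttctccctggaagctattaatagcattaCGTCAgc
TGACG was present in 19.8% of all 27025 genes and in 13 of the 24 immediate early genes with a window. The Fos window holds 2 matches and the Atf3 window 1. As for CCAAT, this describes the letters alone.

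**Figure D4:**
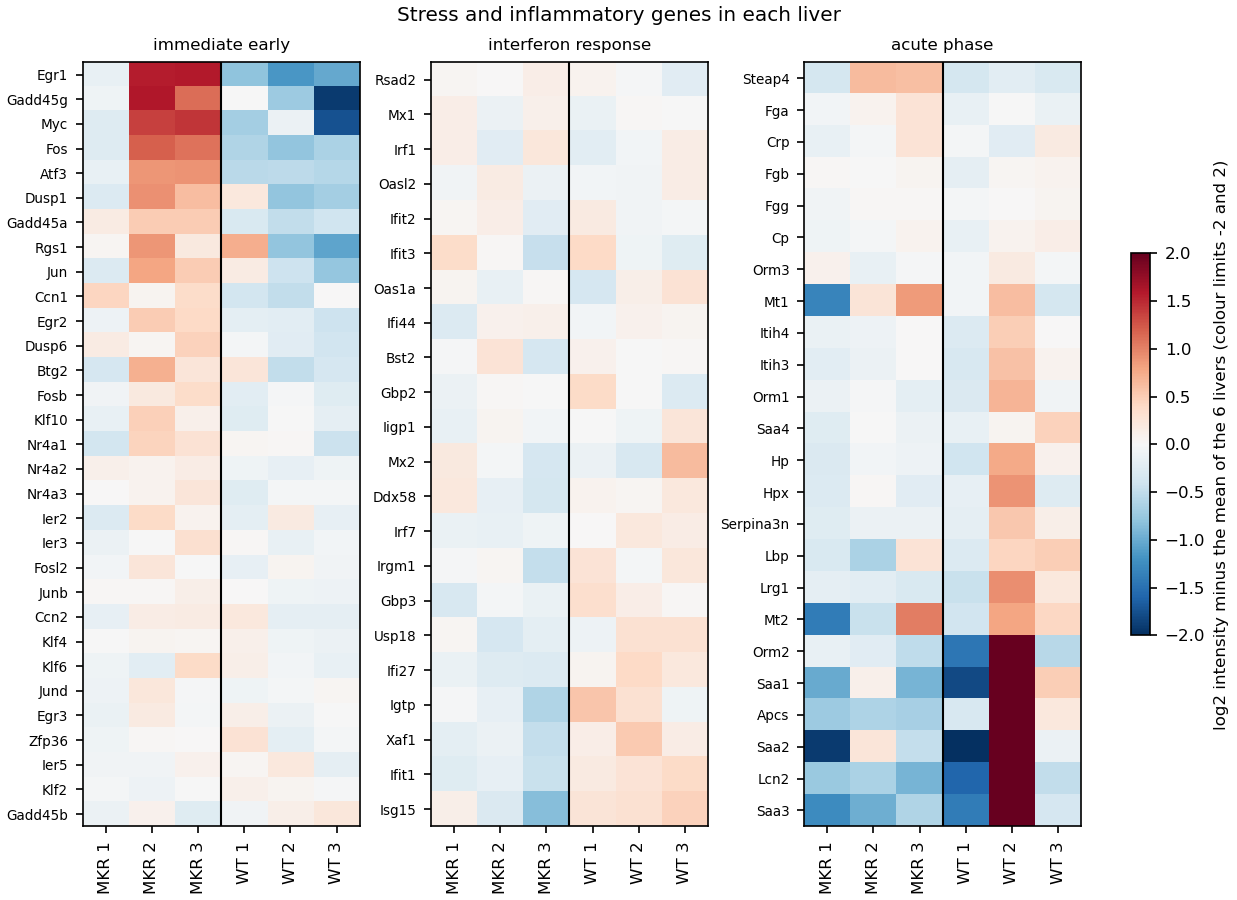
Heat maps of the 6 livers (columns, MKR left of WT) for immediate early, interferon response and acute-phase genes, each gene (row) as log2 intensity minus its mean over the livers. MKR livers 2 and 3 are highest in most immediate early genes, MKR liver 3 is lowest in most interferon genes, and WT liver 2 is highest in most acute-phase genes.

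Most interferon response genes had a lower mean in MKR livers. Of 22 measured genes 19 had a lower mean in MKR livers, 8 (36.4%, against 2.39% of all genes) were lower at p under 0.05 and 0 higher, and 6 were lower without overlap, against 5.31% of all genes. The median was -0.11, and 5 to 7 genes were lower at p under 0.05 when any liver was left out. None passed after adjustment.

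Ifit1, which binds viral RNA that lacks a host cap, had 5.41, 5.49 and 5.21 in MKR livers, against 5.84, 5.94 and 6.05 in WT livers, a change of -0.57 ± 0.12 (SE, adjusted p = 0.505). Isg15, a ubiquitin-like modifier, had 6.85, 6.45 and 5.88 in MKR livers and 6.99, 7.04 and 7.19 in WT livers, a change of -0.68 ± 0.21 (SE, adjusted p = 0.848) that became -0.43 without MKR liver 3. Xaf1, which antagonises an inhibitor of apoptosis, had 5.89, 5.97 and 5.61 in MKR livers and 6.22, 6.62 and 6.24 in WT livers, a change of -0.54 ± 0.15 (SE, adjusted p = 0.686). Every WT liver was above every MKR liver in these 3 genes. Ifi27 and Gbp3 had changes of -0.45 and -0.33, and Irf7, the factor that amplifies the response, had 4.79, 4.77 and 4.83 in MKR livers and 4.93, 5.13 and 5.06 in WT livers. Other classical members were close to 0 or had the opposite sign, in that Mx1 and Rsad2 had changes of 0.08 and 0.12 and Oas1a and Ifit3 of -0.05 and -0.04.

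The interferon-stimulated response element is bound by factors of the IRF and STAT families, and its core was searched as GAAA, any 2 bases and GAAA again. Upstream windows of 3 of the genes are shown with matches on either strand in capitals, where matches may overlap each other.
Ifit1 (chr19:34640639-34640888, plus strand): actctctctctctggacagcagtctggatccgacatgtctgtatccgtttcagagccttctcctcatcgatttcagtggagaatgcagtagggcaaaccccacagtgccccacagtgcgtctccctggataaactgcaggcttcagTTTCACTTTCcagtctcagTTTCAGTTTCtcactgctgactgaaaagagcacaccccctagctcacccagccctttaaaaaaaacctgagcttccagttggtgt
Isg15 (chr4:156200819-156201068, minus strand): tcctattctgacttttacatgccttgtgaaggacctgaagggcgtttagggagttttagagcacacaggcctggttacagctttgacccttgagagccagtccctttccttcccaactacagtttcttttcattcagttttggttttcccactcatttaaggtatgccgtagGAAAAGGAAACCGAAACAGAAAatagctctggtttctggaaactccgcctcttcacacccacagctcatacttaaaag
Gbp3 (chr3:142559794-142560043, plus strand): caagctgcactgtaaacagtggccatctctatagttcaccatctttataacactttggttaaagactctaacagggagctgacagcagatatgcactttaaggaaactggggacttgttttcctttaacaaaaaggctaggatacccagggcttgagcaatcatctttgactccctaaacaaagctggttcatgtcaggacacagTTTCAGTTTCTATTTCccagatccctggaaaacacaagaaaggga
Matches lay 94 and 75 bases before the start in Ifit1, 68, 62 and 56 in Isg15, and 35 and 29 in Gbp3. The core was found in 3.46% of all 27025 genes and in 10 of the 17 interferon genes with a window. Genes with the core included Rsad2, Oas1a and Ifit3, whose changes are given above. Gbp3 has 2 windows in the table, as Pklr does, and Dhcr7 has 3, and the first with a match is printed for each.

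Markers of Kupffer and endothelial cells were lower on average in MKR livers, and those of stellate cells and cholangiocytes were not. Lower means were not particular to these 2 cell types. They were also seen in 11 of 12 lymphocyte markers (median -0.10) and 8 of 11 markers of monocytes and neutrophils (median -0.07). None of these was lower at p under 0.05, and 1 lymphocyte marker was higher. Epididymis and testis markers averaged 4.56 to 4.62 in MKR livers and 4.65 to 4.83 in WT livers. Lower means were seen in 7 of these 9, with 2 (22.2%) lower at p under 0.05 and 3 without overlap. Skeletal muscle and pancreas markers had lower means in 6 of 10 and 4 of 8, with 0 lower at that p. All 16 markers of Kupffer cells, the macrophages of the liver, had a lower mean in MKR livers. Of these, 4 were lower at p under 0.05 (25%, against 2.39% of all genes) and 5 without overlap (against 5.31% of all genes). Their mean level was 6.37 to 6.55 in MKR livers, against 6.63 to 6.79 in WT livers. With a liver left out, 13 to 16 had a lower mean and 4 to 7 were lower at p under 0.05. Vsig4, a complement receptor of these cells, had 9.65, 9.53 and 9.29 in MKR livers and 10.22, 10.10 and 9.83 in WT livers, a change of -0.56 (adjusted p = 0.61). Cd5l and the scavenger receptor Marco had changes of -0.52 and -0.48, and Adgre1, which encodes F4/80, one of -0.01. Endothelial markers averaged 6.66 to 6.81 in MKR livers and 6.82 to 7.0 in WT livers, with 4 of 13 lower without overlap (against 5.31% of all genes). At p under 0.05, 1 was lower. This count was 0 without MKR liver 1 or WT liver 1, and 2 when any other liver was left out. Markers of stellate cells and fibroblasts averaged 6.34 to 6.40 in MKR livers and 6.19 to 6.40 in WT livers, with 9 of 14 higher on average in MKR livers and a median of 0.05. Those of cholangiocytes, the cells of the bile ducts, averaged 5.39 to 5.47 in MKR livers and 5.22 to 5.39 in WT livers, with 6 of 8 higher on average and 1 higher and 1 lower at p under 0.05, and Spp1, osteopontin, had a change of 0.60. Fewer cells of a type and less RNA per cell cannot be told apart in whole liver, and the part of these cells in the lower interferon genes was not tested. Tlr7, a sensor of viral RNA in immune cells, had 4.84, 4.99 and 4.92 in MKR livers and 5.47, 5.48 and 5.79 in WT livers, and Ms4a6c, a gene of monocytes and macrophages, had a change of -0.72. Both lie outside the marker lists and were picked by their values. Of the listed markers, Cd163, Lyz2 and Ly6c2 had changes of -0.01, -0.06 and 0.21.

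Acute-phase genes depended on 1 liver. With all livers 20 of 24 had a lower mean in MKR livers and the median was -0.27, but 14 of the 24 were highest in WT liver 2. Without that liver 14 had a higher and 10 a lower mean, and the median was 0.02. Saa3 had 5.85, 6.14 and 6.51 in MKR livers, against 5.71, 11.67 and 6.77 in WT livers. Apcs, serum amyloid P, was the member whose groups did not overlap, with 7.92, 8.02 and 7.97 in MKR livers and 8.32, 10.79 and 8.85 in WT livers, and had changes of -1.35 with and -0.61 without WT liver 2 (both at p under 0.05). The results on fatty acid synthesis, immediate early and interferon genes had 6 higher, 10 higher and 6 lower members at p under 0.05 without WT liver 2.

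Genes of secreted liver proteins went both ways, with 4 of 22 higher and 2 lower at p under 0.05. These were 18.2% and 9.09% of the list, against 2.43% and 2.39% of all genes. The counts were 2 and 1 without MKR liver 3 and 2 and 2 without WT liver 2. Serpina12, the serpin vaspin, had 6.89, 7.5 and 6.46 in MKR livers, against 5.83, 5.41 and 5.99 in WT livers, a change of 1.20 ± 0.24 (SE, adjusted p = 0.505) without overlap. Inhba, the subunit of activin A, had 7.74, 8.10 and 7.60 in MKR livers and 7.38, 6.87 and 6.61 in WT livers, a change of 0.86 ± 0.20 (SE, adjusted p = 0.561). Its binding protein follistatin, Fst, had a change of 0.63 (adjusted p = 0.984) with overlap, or 0.33 without MKR liver 3. Gdf15, a stress hormone, had a change of -0.31 (adjusted p = 0.955).

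Insulin signalling had 1 gene at p under 0.05, and it was lower (5.56% of the list, against 2.39% of all genes). Enpp1, a membrane enzyme that can inhibit the insulin receptor, had 8.07, 8.14 and 8.12 in MKR livers, against 8.87, 8.40 and 8.60 in WT livers, a change of -0.51 ± 0.13 (SE, adjusted p = 0.657), and was that gene among 18. Insr, the receptor itself, had 9.75, 9.48 and 9.68 in MKR livers and 9.65, 9.36 and 9.61 in WT livers. Irs1 and Irs2, the adaptors below it, had changes of 0.18 and 0.21.

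Clock genes bear on the hour at which the livers were taken. Among 21 genes, Ciart, a repressor of the clock, had 7.57, 7.40 and 6.42 in MKR livers and 7.93, 8.01 and 7.86 in WT livers, a change of -0.80 ± 0.25 (SE, adjusted p = 0.866) that became -0.45 without MKR liver 3. Wee1, a cell cycle kinase under clock control, had a change of 0.70 (adjusted p = 0.98), or 0.32 without WT liver 3. Nr1d1, which encodes REV-ERBα, had 9.85, 8.71 and 7.93 in MKR livers and 9.24, 9.33 and 9.99 in WT livers, so that MKR liver 3 was the lowest and WT liver 3 the highest. Arntl, the gene of BMAL1, had 4.82, 5.14 and 6.07 in MKR livers and 5.12, 5.14 and 5.81 in WT livers, with overlap. Whether livers differed in the hour of collection was not tested.

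Beside Pde9a, 3 more of 27 genes of phosphodiesterases and cyclic nucleotide signalling were higher at p under 0.05, all without overlap. These 4 were 14.8% of the list, against 2.43% of all genes higher at that p and 4.11% higher without overlap. Pde9a is among the 4, and the list was chosen with earlier results of these data known. The share is therefore not independent evidence. The count of 4 became 2 without MKR liver 1. The list as a whole was not raised, with 13 genes higher and 14 lower on average and a median of -0.009. Pde1a, Pde4b and Pde4d, which break down cyclic nucleotides, had changes of 0.50, 0.33 and 0.30. Npr2, a receptor that makes cyclic GMP, had 7.80, 7.64 and 7.31 in MKR livers and 7.88, 7.82 and 8.11 in WT livers, a change of -0.35 that became -0.22 without MKR liver 3. Among 18 oxysterol-binding and sterol transport genes, Osbpl8 had a change of 0.48 (0.32 without WT liver 2) and Npc2 one of -0.26.

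**Figure D5:**
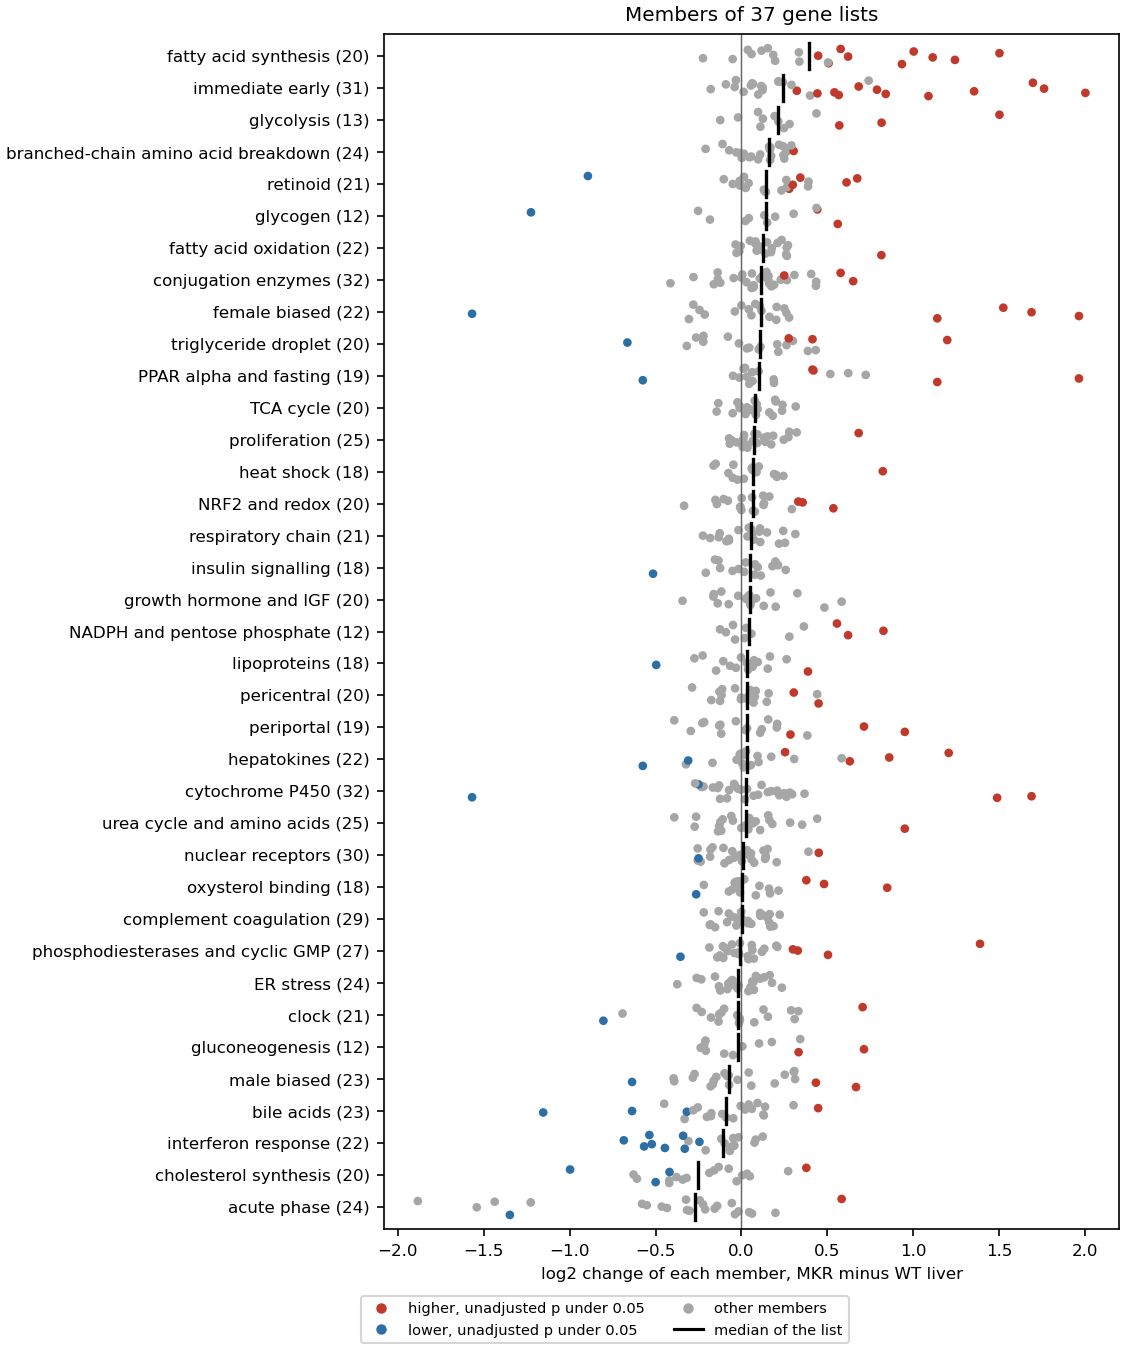
Changes of the members (points, MKR minus WT, log2 scale, x axis) of 37 gene lists (rows) with the median of each list. Medians of fatty acid synthesis (0.39) and immediate early genes (0.24) lie furthest above 0, and those of acute-phase (-0.27) and cholesterol synthesis genes (-0.25) furthest below it.

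Several pathways had few or no members with a p under 0.05. In the tricarboxylic acid cycle (20 genes), oxidative phosphorylation (21), complement and coagulation (29) and the unfolded protein response (24) the count was 0 by limma, with changes from -0.37 (Herpud1) to 0.32 (Pdha1), which were -0.17 without WT liver 1 and 0.13 without WT liver 2. Degradation of branched-chain amino acids had 19 of 24 genes with a higher mean in MKR livers and a median of 0.16 (0.01 to 0.22 with a liver left out), but only Hibadh, at 0.30, had a p under 0.05. Bckdha, Bckdhb and Dbt of the branched-chain dehydrogenase had changes of 0.24, 0.11 and -0.01. In the proliferation list 21 of 25 genes had a higher mean, with a median of 0.08, and Rrm2, a subunit of ribonucleotide reductase, had 5.67, 6.0 and 5.25 in MKR livers and 5.07, 4.73 and 5.07 in WT livers.

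Outside the lists, large changes were also seen in genes of other roles. Slc17a4, an organic anion transporter, had 8.39, 7.78 and 7.51 in MKR livers, against 7.27, 6.12 and 6.87 in WT livers, a change of 1.14 ± 0.29 (SE, adjusted p = 0.611). Tmc7, a channel-like membrane protein, had 6.04, 6.34 and 6.99 in MKR livers and 7.19, 7.05 and 7.32 in WT livers, a change of -0.73 ± 0.21 (SE, adjusted p = 0.747). Both separated the groups without overlap. Tchh, at 1.53, and the histone gene H4c1, at -0.70, rest on 1 probe set each, as 21 of the 162 genes at the study's thresholds did. Of those 162 genes, 108 separated the genotypes without overlap and 47 belonged to one of the 37 lists, which hold 741 genes.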

How the data were processed

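The authors normalized the arrays with RMA in Partek 6.3 and deposited log2 values, 1 per probe set, without pooling. The array's genome build is not given in the sources used here. Of 241419 probe sets, 212138 had 1 gene symbol and were used, 4672 had several and 24609 had none. Of 20422 symbols, 17626 were current in the GRCm38.p6 annotation, 2743 were matched through a synonym and 53 were kept. Genotypes were compared with limma 3.58.1 in R 4.3.3 over the 6 liver arrays, with p-values moderated by empirical Bayes and adjusted over the 20358 genes by the Benjamini-Hochberg method. The methods of the study name a two-way ANOVA and do not state its arrays. The limma fit over 18 arrays was taken as its counterpart. A two-way ANOVA itself gave 90 genes higher and 34 lower in MKR livers at the study's thresholds. Intervals printed as ± are SE of the change. Quantile normalization can hide a shift common to all genes, and without detection calls a low level cannot be told from background. Promoter windows came from RefSeq. The script was tested on simulated data. Python 3.11.15 drew the figures.

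Genes were named by a rule: Igf1r, every gene at an adjusted p under 0.05 in the fit of 6 or 18 arrays, the 15 largest changes each way at the study's thresholds without overlap (predicted, RIKEN, small RNA and olfactory receptor genes left out), and per list up to 5 members with the smallest p under 0.05 and its extremes. Other genes named were chosen after their values were seen. The members and the 37 gene lists were chosen with earlier results of these data known. Raw intensities and metabolic fluxes were not analysed here. Alternatives were other summaries, scalings and moderation, other thresholds, other sample sets, and omission of each liver.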

Additional observations from a re-analysis of the deposited data

How the results depend on the processing

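With the 6 livers 1 gene had an adjusted p under 0.05, and this count was 7 with all 18 arrays, 3 with trend and robust moderation (Ntrk2, Olfr45 and Pde9a), and 0 with the median of probe sets, with arrays centred on their median, without moderation and with probe sets tested in place of genes. It lay between 0 and 6 when a liver was left out: 6 without MKR liver 1 (Atf3, Egr1, Fos, Ntrk2, Tchh and Tiparp), 1 without MKR liver 2 (Cd36), 2 without MKR liver 3 (Ntrk2 and Pde9a), and 0 without any of the 3 WT livers. The counts at the study's thresholds, 111 higher and 51 lower, were 216 and 129 with the median of probe sets, 52 and 17 without moderation, 22 and 8 at a fold change over 2, and 84 to 159 and 64 to 80 with a liver left out. The difference between liver and muscle passed for 36 genes with the arrays of these tissues alone. The change of Igf1r was -0.0874 with the median of probe sets. For these differences the cause was not tested. Ntrk2 kept a positive change in 16 of 16 settings and passed in 9. The replicate number as a replicate block gave 1 gene, with 112 higher and 49 lower at the study's thresholds. The labels do not say whether the numbers pair mice, and same-numbered MKR and WT livers came from different mice. Their deviations correlated at 0.231, 0.228 and -0.0719, within the range of different-numbered livers, -0.43 to 0.264. With 3 livers per group these correlations cannot decide whether mice were paired. With the block Ntrk2 was again the gene that passed, while 1256 genes had an unadjusted p under 0.05 against 980 without it. The number of arrays, 3 livers each, limits the precision.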
